A study of Mus musculus with 2 samples.

Results

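The genes described here are 9 genes of pericellular proteolysis: the matrix metalloproteinases *Mmp9*, *Mmp12*, *Mmp14* and *Mmp19*, the tissue inhibitors of metalloproteinases *Timp1*, *Timp2* and *Timp3*, the urokinase gene *Plau* and its receptor gene *Plaur*. They were taken by symbol, 9 of 33696 genes in the deposited matrices, and their unique molecular identifiers (UMIs, each standing for 1 captured transcript) were compared between 2 single-cell RNA-seq libraries of CD45+ cells sorted from the thalamus of C57B6/J mice. All mice had a cortical brain injury (cortical ablation, CAI). One library came from mice given control Ab (normal rat IgG) and the other from mice given anti-CD9 Ab (a blocking antibody against the tetraspanin CD9), each at 1.0 μg/μl through a cannula into the thalamus between day 7 and day 19, with cells collected on day 21. According to the methods, 4 mice were pooled for a thalamic library, and whether this also holds for the antibody-treated mice is not stated. Each antibody had a single library, which allows no test, and antibody, pool of mice and library cannot be told apart. All intervals below are 95% intervals that cover counting error only.

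Matrix metalloproteinases cut matrix proteins, chemokines and cell surface proteins. TIMP proteins can hold metalloproteinases in check by sitting in the active site, though not every TIMP does so for every enzyme. Urokinase, held on the cell by its receptor, turns plasminogen into plasmin, which cuts fibrin and activates several metalloproteinases. In the brain, microglia, infiltrating macrophages and neutrophils are known sources of these proteins, and MMP-9 from neutrophils is known for its action on the basement membrane of vessels.

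The libraries held 12245 barcodes with control Ab against 15173 with anti-CD9 Ab, with medians of 1816 and 1667 UMIs, and the limits on genes and mitochondrial counts kept 7467 and 9162 cells. They shared 54 barcodes. Cells were clustered without the 9 genes and their relatives, and clusters were named from marker lists. The mix of cells differed strongly. Microglia-like cells numbered 1852 with control Ab against 810 with anti-CD9 Ab, macrophage-like cells 216 and 1298, neutrophil-like cells 63 and 2554, whereas T cell-like cells numbered 2798 and 988. Microglia-like cells formed cluster 2, led by *Lpl*, *Cst7*, *Ctsl* and *Spp1*, and cluster 7, led by *Siglech* and *P2ry12*. Astrocyte-like cells (427 and 77) and oligodendrocyte-like cells (303 and 98) were present despite the CD45 sort.

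Levels are given as CPM, the UMIs of a gene per 1000000 UMIs of the cells in question. In all kept cells, some of the 9 genes had a higher level with anti-CD9 Ab and others a lower one. The share of all genes in each direction was not computed for these totals. *Timp1* was at 1.04 CPM (26 UMIs) with control Ab and 21.9 CPM (496 UMIs) with anti-CD9 Ab. *Mmp9* was at 6.34 and 61.9 CPM, *Mmp12* at 2.93 and 7.50 CPM, *Mmp14* at 21.5 and 67.8 CPM, *Mmp19* at 2.17 and 8.12 CPM and *Plaur* at 52.0 and 175 CPM. On the lower side, *Timp2* was at 800 and 182 CPM, *Timp3* at 13.1 and 3.09 CPM, and *Plau* at 48.8 and 11.3 CPM. These totals follow the mix of cells as well as the level within cells, so the levels below are within cell types.

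**Figure D1:**
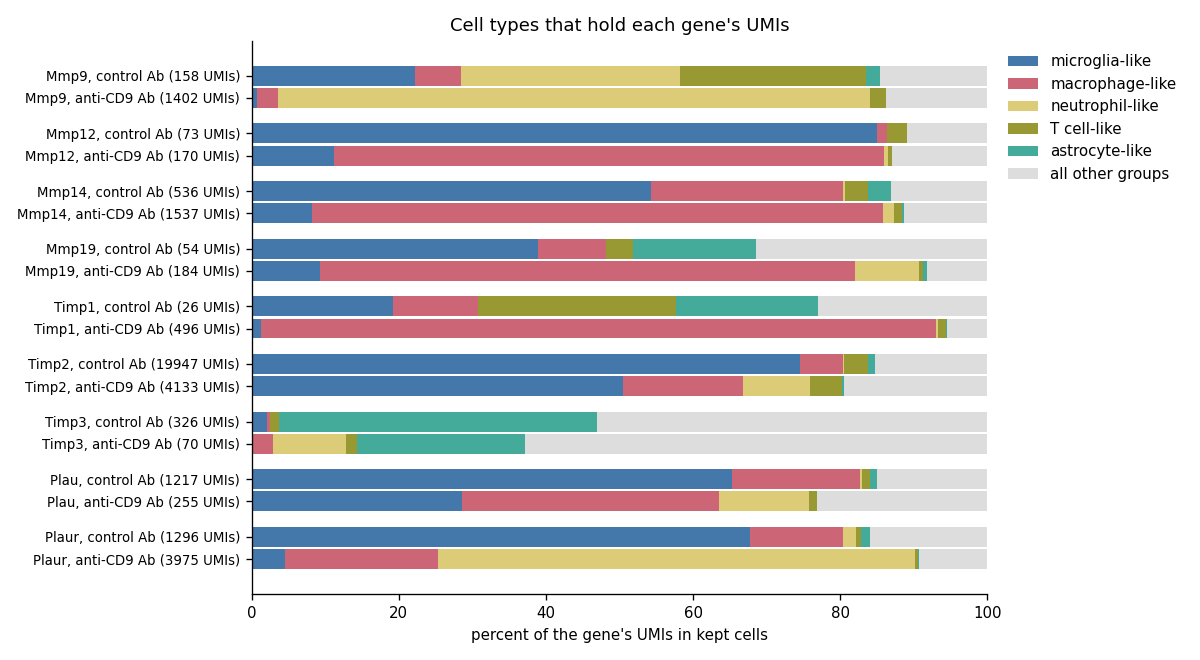
Share of each gene's UMIs (percent, x axis) that lay in each cell type, with 1 bar per gene and library and the gene's UMI total in brackets. With anti-CD9 Ab most UMIs of *Mmp12*, *Mmp14*, *Mmp19* and *Timp1* lay in macrophage-like cells and most of *Mmp9* and *Plaur* in neutrophil-like cells, whereas with control Ab microglia-like cells held most UMIs of *Mmp12*, *Mmp14*, *Timp2*, *Plau* and *Plaur*. The bars are not scaled to the share of all UMIs that each cell type held.

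The cells that held the transcripts differed between the libraries. With control Ab, microglia-like cells held 84.9% of the *Mmp12* UMIs, 54.3% of the *Mmp14* UMIs and 67.8% of the *Plaur* UMIs. With anti-CD9 Ab, macrophage-like cells held 74.7% of the *Mmp12* UMIs, 77.6% of the *Mmp14* UMIs and 91.7% of the *Timp1* UMIs. Neutrophil-like cells held 29.7% of the *Mmp9* UMIs with control Ab against 80.5% with anti-CD9 Ab, and 64.9% of the *Plaur* UMIs with anti-CD9 Ab. *Timp2* stayed mainly in microglia-like cells, which held 74.6% and 50.4% of its UMIs.

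*Timp2*, an inhibitor that also takes part in the activation of pro-MMP-2 by MT1-MMP, was at 1423 CPM in microglia-like cells with control Ab (14877 UMIs) and 700 CPM with anti-CD9 Ab (2084 UMIs), a log2 ratio of -1.02 (-1.09 to -0.96). In macrophage-like cells it was at 817 CPM (1152 UMIs) and 98.6 CPM (678 UMIs), a log2 ratio of -3.05 (-3.19 to -2.91). The level was thus lower with anti-CD9 Ab in both types, and by more in macrophage-like cells. With each cell thinned to 1000 UMIs, a *Timp2* UMI was found in 56.9% of microglia-like cells with control Ab (54.6 to 59.2%) against 38.2% with anti-CD9 Ab (34.8 to 41.6%), where 30 and 16 shallower cells were left out (78.0% and 66.7% without thinning, at medians of 3245 and 3443 UMIs per cell). T cell-like cells, in which *Timp2* RNA can come from free RNA in the droplets, had a *Timp2* UMI in 11.9% and 6.99% of cells (medians of 1554 and 2288 UMIs per cell before thinning). Their level was 137 and 64.6 CPM, a log2 ratio of -1.08 (-1.32 to -0.85). It was uneven between their clusters. Clusters 0, 1 and 14 were at 97.0, 160 and 225 CPM with control Ab and at 42.7, 89.2 and 120 CPM with anti-CD9 Ab. How much of it was free RNA was not tested. The share in macrophage-like cells was 41.3% with control Ab, above that of T cell-like cells, and 7.93% with anti-CD9 Ab, close to the 6.99% of T cell-like cells in the same library.

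The lower *Timp2* level of microglia-like cells was not shared by all of their sub-clusters. In sub-cluster 0, led by *Ctnna3*, *Lpl*, *Csf1* and *Igf1* and with a mean log2 excess of 0.52 in the markers of the *Cd9*-high state MG#4, *Timp2* was at 1584 CPM with control Ab (534 cells) and 1382 CPM with anti-CD9 Ab (142 cells), a log2 ratio of -0.20 (-0.30 to -0.09). In sub-cluster 1, with the homeostatic markers of MG#2/3 up by 0.81, it was at 307 and 300 CPM (436 and 120 cells), and the interval of the ratio, -0.37 to 0.30, held 0. Among sub-clusters 0 to 4, each with at least 30 cells of both libraries and few predicted doublets, the largest difference lay in sub-cluster 2, led by *Saa3*, *Cxcl13* and *Ccl5*. There *Timp2* was at 2581 CPM with control Ab (293 cells) and 721 CPM with anti-CD9 Ab (261 cells), a log2 ratio of -1.84 (-1.96 to -1.72). Sub-clusters 3 and 4 lay between these, with log2 ratios of -0.90 (-1.15 to -0.64) and -1.16 (-1.78 to -0.54). The homeostatic markers of MG#2/3 were up in these as well, by 0.41 and 0.77. Sub-clusters with these markers up thus differed in their *Timp2* ratio. Sub-cluster 0 made up 28.8% of microglia-like cells with control Ab against 17.5% with anti-CD9 Ab, and sub-cluster 2 made up 15.8% and 32.2%. When the libraries were merged without integration, the *Timp2* log2 ratio of microglia-like cells was 0.05 (-0.04 to 0.14). In that setting 209 cells with anti-CD9 Ab were named microglia-like, and a cluster of 89 and 609 cells that best matched the microglia list stayed unnamed. Naming every cluster of that setting by its best-matching list, an alternative chosen after seeing the data, gave -0.95. The summed level of the 12 microglia markers itself was 14790 CPM in microglia-like cells with control Ab and 9259 CPM with anti-CD9 Ab.

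**Figure D2:**
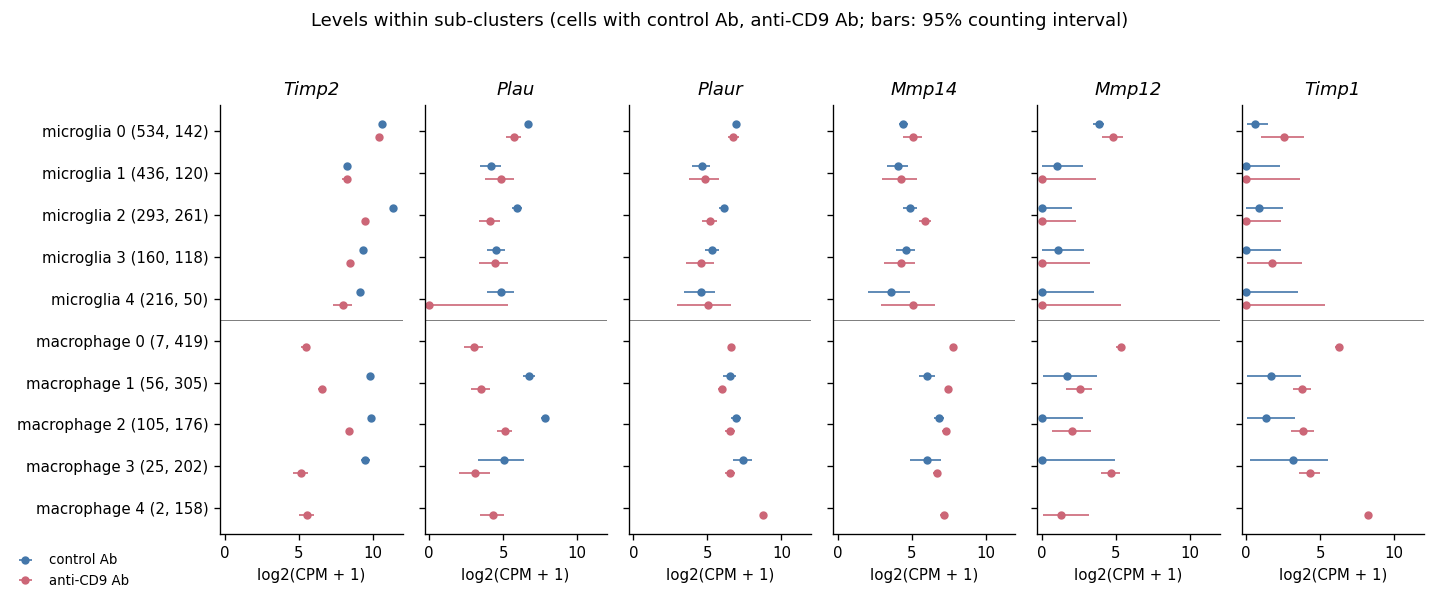
Levels of 6 of the genes, as log2(CPM + 1) on the x axis, in sub-clusters of microglia-like cells (upper rows) and macrophage-like cells (lower rows), in the control Ab library (blue) and the anti-CD9 Ab library (red), with bars for the 95% counting interval and the number of cells of each library in brackets. A library with fewer than 20 cells in a sub-cluster has no point. *Timp2* and *Plau* points of the libraries lie far apart in macrophage-like sub-clusters 1 and 2, and the *Timp2* points nearly coincide in microglia-like sub-clusters 0 and 1.

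In macrophage-like cells the *Timp2* difference was seen in both sub-clusters that held at least 30 cells of each library. Sub-cluster 1 was at 881 and 92.6 CPM (56 and 305 cells), a log2 ratio of -3.25 (-3.52 to -2.98), and sub-cluster 2, led by *Spp1*, *Gpnmb* and *Fabp5*, was at 948 and 341 CPM (105 and 176 cells), a ratio of -1.48 (-1.67 to -1.28). The leading genes of sub-cluster 1 included the microglia markers *P2ry12*, *Gpr34*, *Cx3cr1* and *Sparc*, although its cells belonged to the macrophage-like cluster. Over all macrophage-like cells the 12 microglia markers summed to 4060 CPM with control Ab and 880 CPM with anti-CD9 Ab, and the 8 monocyte markers to 1395 and 4840 CPM. Their part in the difference was not tested.

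*Timp2* was lower with anti-CD9 Ab in other types too. It was at 122 and 30.2 CPM in dendritic cell-like cells, at 64.5 and 12.3 CPM in plasma cell-like cells and at 455 and 53.2 CPM in oligodendrocyte-like cells. T cell-like cells, at 137 and 64.6 CPM, lay above the dendritic cell-like and plasma cell-like levels in both libraries. With anti-CD9 Ab they also lay above the oligodendrocyte-like level, which rested on 6 UMIs. Whether the *Timp2* UMIs of these 3 types came from free RNA was not tested. Among whole clusters and named types, the highest level was in cluster 21, an unnamed group of 76 and 41 cells led by *Ccl8*, *Cxcl13* and *Spp1*, at 2545 and 1874 CPM, a log2 ratio of -0.44 (-0.70 to -0.18).

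*Timp1*, the inducible inhibitor that binds MMP-9 and also acts as a cytokine through CD63, was nearly absent with control Ab. Macrophage-like cells held 3 *Timp1* UMIs with control Ab (2.13 CPM) against 455 with anti-CD9 Ab (66.1 CPM), a log2 ratio of 4.96 with an interval from 3.32 to 6.60. The 455 UMIs came from 117 of 1298 cells, and the 5 highest cells held 31.6% of them. In T cell-like cells *Timp1* was at 1.44 and 1.80 CPM, so the level of macrophage-like cells with anti-CD9 Ab stood above this background. Within macrophage-like cells it was uneven. Sub-cluster 4, led by *Cxcl10*, *Cxcl11* and neutrophil genes such as *S100a9*, was at 298 CPM over 158 cells with anti-CD9 Ab, and sub-cluster 0, led by *Saa3*, *Lcn2* and *Nos2*, at 74.97 CPM over 419 cells. They held 205 and 178 of the 455 UMIs. These 2 sub-clusters had only 2 and 7 cells with control Ab, and 40.6% and 25.8% of their cells were predicted doublets. With all predicted doublets left out, the *Timp1* log2 ratio of macrophage-like cells was 4.42 (2.78 to 6.06). In sub-clusters 1 and 2, which had cells of both libraries, *Timp1* was at 2.18 and 1.61 CPM with control Ab (1 UMI each) and at 12.9 and 13.6 CPM with anti-CD9 Ab (21 and 13 UMIs). In microglia-like cells it was at 0.478 CPM (5 UMIs) and 2.02 CPM (6 UMIs), too few for a ratio.

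*Timp3*, the inhibitor that stays bound to the matrix and also blocks ADAM17, had most of its UMIs outside the immune cells with control Ab, where astrocyte-like cells held 141 of 326 and the unnamed cluster 13 held 150. With anti-CD9 Ab only 70 UMIs were found, 20 of them in dendritic cell-like, 16 in astrocyte-like and 8 in cluster 13 cells. Astrocyte-like cells held it at 187 CPM with control Ab (141 UMIs) and 180 CPM with anti-CD9 Ab (16 UMIs), a log2 ratio of -0.06 (-0.81 to 0.69) that was 1.32 (0.47 to 2.18) when cells were named one by one from their markers. Cluster 13 (299 and 82 cells) had 5 of 6 astrocyte markers up, 83.3% of the oligodendrocyte markers up and *Kcnip4*, *Opcml* and *Csmd1* as leading genes. It was at 115 CPM (150 UMIs) and 62.6 CPM (8 UMIs), and the interval of the ratio, -1.90 to 0.15, held 0. Fibroblast or pericyte-like cells, only 71 and 16 cells, were at 151 CPM (12 UMIs) and 466 CPM (7 UMIs, 187.5 to 960.9 CPM). With anti-CD9 Ab this was above astrocyte-like cells. Microglia-like cells had 7 UMIs with control Ab and 0 of 2975243 UMIs with anti-CD9 Ab, which allows a level of up to 1.008 CPM, and macrophage-like cells had 1 and 2. The lower total of *Timp3* in the anti-CD9 Ab library went with fewer astrocyte-like cells (427 against 77) and fewer cells in cluster 13 (299 against 82). Dendritic cell-like cells were at 0 CPM with control Ab (0 of 616522 UMIs, which allows up to 4.87 CPM) and 13.4 CPM with anti-CD9 Ab (20 UMIs).

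**Figure D3:**
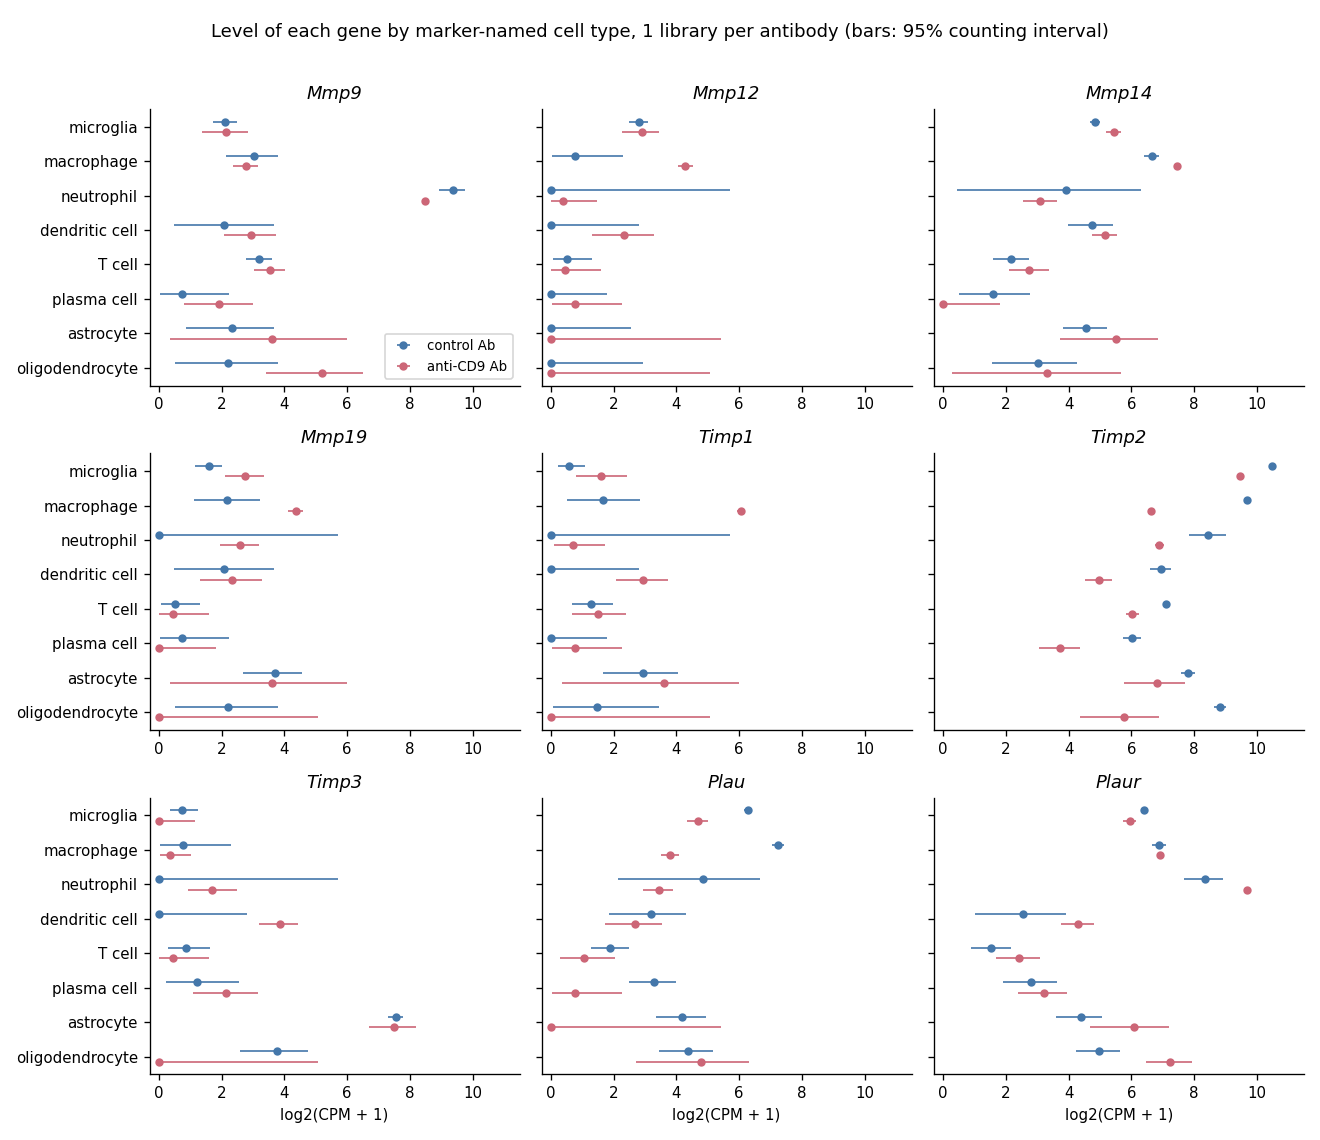
Level of each gene as log2(CPM + 1), x axis, in 8 named cell types for the control Ab library (blue) and the anti-CD9 Ab library (red), with bars for the 95% counting interval. Among these 8 types *Mmp9* was highest in neutrophil-like cells, *Timp3* in astrocyte-like cells and *Timp2* in microglia-like cells in both libraries. *Timp1* was above 10 CPM with anti-CD9 Ab in macrophage-like cells and, on 1 UMI, in astrocyte-like cells.

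*Plau*, which encodes urokinase, was lower with anti-CD9 Ab in both phagocyte types, though not in every microglia-like sub-cluster. In microglia-like cells it was at 75.9 CPM with control Ab (794 UMIs) and 24.5 CPM with anti-CD9 Ab (73 UMIs), a log2 ratio of -1.63 (-1.98 to -1.28). In macrophage-like cells it was at 151 CPM (213 UMIs) and 12.9 CPM (89 UMIs), a ratio of -3.54 (-3.90 to -3.19). T cell-like cells were at 2.68 and 1.08 CPM, far under both. A *Plau* UMI was found in 6.26% of thinned microglia-like cells with control Ab against 2.02% with anti-CD9 Ab, in 14.6% and 1.65% of macrophage-like cells, and in 0.163% and 0.109% of T cell-like cells. In microglia-like sub-cluster 0, where *Timp2* differed little, *Plau* was at 99.4 and 53.0 CPM, a log2 ratio of -0.91 (-1.42 to -0.39). In sub-cluster 2 it was at 60.9 and 16.5 CPM (74 and 15 UMIs). In macrophage-like sub-clusters 1 and 2 the ratios were -3.36 (-4.15 to -2.56) and -2.75 (-3.30 to -2.20). Without integration the ratio of microglia-like cells was -0.48 (-0.93 to -0.04), again over the 209 cells so named.

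*Plaur*, which encodes the urokinase receptor uPAR, was highest in neutrophil-like cells. These cells held it at 322 CPM with control Ab (23 UMIs in 63 cells) and 816 CPM with anti-CD9 Ab (2580 UMIs in 2554 cells), a log2 ratio of 1.34 (0.75 to 1.93). The share of thinned neutrophil-like cells with a *Plaur* UMI did not show this rise: it was 33.3% with control Ab, 7 of only 21 cells deep enough (14.6 to 57.0%), and 32.9% with anti-CD9 Ab (30.7 to 35.2%, 817 shallower cells left out), against 0.122% and 0.655% in T cell-like cells. Within cluster 5, the neutrophil-like cluster led by *Retnlg*, *S100a8* and *Cxcr2* (47 and 1180 cells), *Plaur* was at 392 and 1040 CPM, a ratio of 1.41 (0.80 to 2.01). Over all neutrophil-like cells, the alternatives ranged from 0.88 (naming by the best-matching list without integration) to 2.06 (the mean of each cell's own share), and a mitochondrial limit of 5% gave 0.97, so the 2-fold difference was not kept under every alternative. In macrophage-like cells it was at 116 and 120 CPM, with an interval of the ratio from -0.19 to 0.29. In microglia-like cells it was at 84.0 and 60.5 CPM, a ratio of -0.47 (-0.70 to -0.24). This ratio was 0.11 (-0.24 to 0.46) without integration, -0.82 (-1.10 to -0.54) without predicted doublets, -0.74 with cells named one by one and -1.09 as UMIs per cell. Sub-cluster 6, in which 78.4% of cells were predicted doublets and whose leading genes included *S100a8* and *S100a9*, held 43 of the 180 *Plaur* UMIs of microglia-like cells with anti-CD9 Ab. Among macrophage-like sub-clusters with anti-CD9 Ab, sub-cluster 4 stood out with 442 CPM, against 63.2 to 96.5 CPM in sub-clusters 0 to 3. Of its cells 40.6% were predicted doublets, and its leading genes too included *S100a8* and *S100a9*. The part of neutrophil RNA or doublets in this level was not tested.

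**Figure D4:**
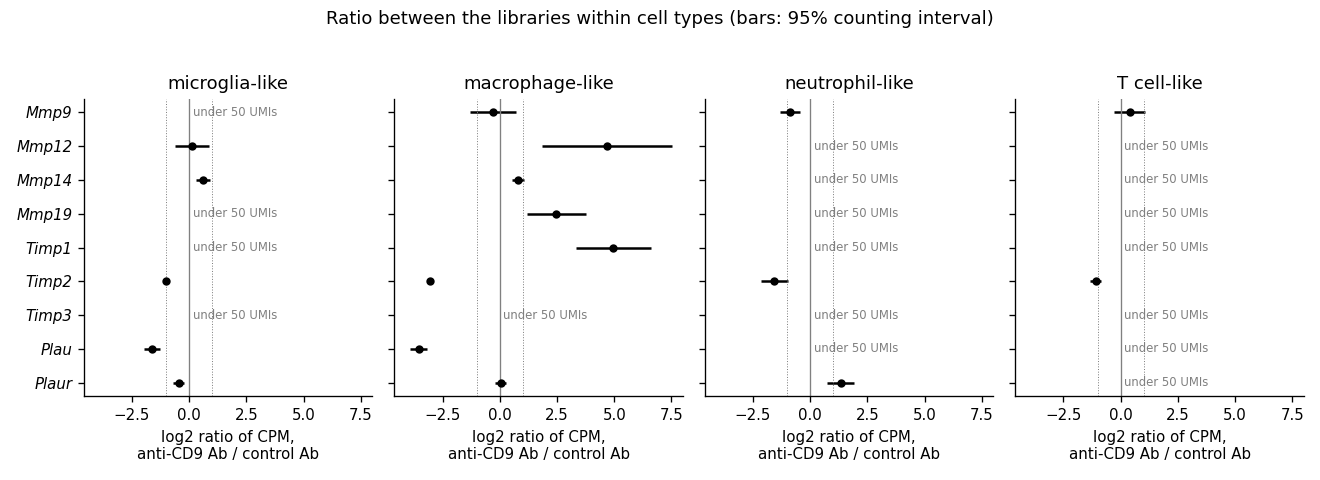
Log2 ratio of CPM, anti-CD9 Ab over control Ab, for each gene in 4 cell types, with bars for the 95% counting interval, a solid line at 0 and dotted lines at a 2-fold difference. Genes with fewer than 50 UMIs over both libraries have no point. *Timp2* lay left of the dotted line in all 4 cell types, and *Plau* in microglia-like and macrophage-like cells. *Mmp12*, *Mmp19* and *Timp1* lay right of the other dotted line in macrophage-like cells, and *Plaur* in neutrophil-like cells.

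*Mmp14* encodes MT1-MMP, the membrane-bound enzyme that activates pro-MMP-2. It was highest in macrophage-like cells, at 99.2 CPM with control Ab (140 UMIs) and 173 CPM with anti-CD9 Ab (1192 UMIs), a log2 ratio of 0.80 (0.55 to 1.06) that did not reach a 2-fold difference. In macrophage-like sub-cluster 1 it was at 65.4 and 172 CPM, a ratio of 1.39 (0.85 to 1.93), and in sub-cluster 2 at 114 and 158 CPM, a ratio of 0.48 (0.07 to 0.88). With anti-CD9 Ab the highest level was in sub-cluster 0, at 223 CPM. In microglia-like cells *Mmp14* was at 27.8 CPM (291 UMIs) and 42.4 CPM (126 UMIs), a ratio of 0.61 (0.30 to 0.91). Of the 291 UMIs with control Ab, 127 came from sub-cluster 5, in which 66.0% of cells were predicted doublets and whose leading genes included the macrophage markers *F13a1* and *Lyz2*. In sub-cluster 2 it was at 28.8 and 59.3 CPM, a ratio of 1.04 (0.43 to 1.66). The ratio of microglia-like cells was 0.91 (0.55 to 1.27) without the sub-clusters of mostly predicted doublets, a choice made after seeing the data, -0.24 (-0.92 to 0.45) without integration, and -0.01 when expressed as UMIs per cell.

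*Mmp12*, the macrophage elastase, was carried by few cells. In macrophage-like cells it had 1 UMI with control Ab (0.709 CPM) against 127 with anti-CD9 Ab (18.5 CPM), a log2 ratio of 4.70 with a counting interval from 1.86 to 7.54. The 127 UMIs came from 32 of 1298 cells, the 5 highest of which held 46.5%. With anti-CD9 Ab, 93 of the 127 UMIs lay in sub-cluster 0. In microglia-like cells *Mmp12* was at 5.93 CPM (62 UMIs) and 6.39 CPM (19 UMIs), and a single cell held 41 of the 62 UMIs with control Ab and another held 16 of the 19 with anti-CD9 Ab. The Poisson interval takes UMIs as independent and so is too narrow for such a gene. With 20 principal components the control Ab cell with 41 UMIs was named macrophage-like, and the log2 ratio of macrophage-like cells was then -0.62 (-1.10 to -0.14).

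*Mmp19*, an enzyme that cuts basement membrane proteins, was at 3.54 CPM in macrophage-like cells with control Ab (5 UMIs) and 19.5 CPM with anti-CD9 Ab (134 UMIs), a log2 ratio of 2.46 (1.17 to 3.75). Unlike *Mmp12*, it was spread over many cells: 116 cells held the 134 UMIs and no cell held more than 4. It was detected in each of sub-clusters 0 to 4 with anti-CD9 Ab, from 6.26 CPM in sub-cluster 2 to 55.2 CPM in sub-cluster 4. Sub-clusters 0 and 4 held 38 of the 134 UMIs each and had only 7 and 2 cells with control Ab. Of the cells of sub-cluster 4, 40.6% were predicted doublets. In sub-cluster 1 *Mmp19* was at 2.18 CPM (1 UMI) and 21.5 CPM (35 UMIs). In sub-cluster 2 it was at 4.81 CPM (3 UMIs) and 6.26 CPM (6 UMIs). Microglia-like cells were at 2.01 CPM (21 UMIs) and 5.71 CPM (17 UMIs).

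*Mmp9*, which encodes gelatinase B, a protein stored in neutrophil granules, was highest in neutrophil-like cells. Its level there was 658 CPM with control Ab (47 UMIs in 63 cells) and 357 CPM with anti-CD9 Ab (1128 UMIs in 2554 cells), a log2 ratio of -0.88 (-1.30 to -0.46). The total over all kept cells, 9.76-fold higher with anti-CD9 Ab, thus went with more neutrophil-like cells and not with a higher level in them. Median-of-ratios scaling gave a log2 ratio of -0.27, and the median over all 5233 genes of these cells was itself -0.28. Neutrophil-like cells comprised 2 clusters at different levels, and the part of their mix in the difference was not tested. Cluster 5 was at 767 and 633 CPM (47 and 1180 cells), with an interval of the ratio from -0.72 to 0.16. Cluster 4, led by *Cxcl2*, *Ccl4* and *Rsad2*, was at 260 CPM with control Ab (4 UMIs in 16 cells) and 163 CPM with anti-CD9 Ab (304 UMIs in 1374 cells). The interval of its ratio was -2.09 to 0.75. An unnamed cluster with 4 of 10 neutrophil markers up (5 and 944 cells) was at 122 CPM with anti-CD9 Ab. T cell-like cells were at 8.23 and 10.8 CPM, macrophage-like cells at 7.09 and 5.82 CPM and microglia-like cells at 3.35 and 3.36 CPM, all far under neutrophil-like cells. The T cell-like level was itself uneven: with control Ab, T cell-like cluster 0, led by *Trdc* and *Scart1*, was at 0.99 CPM (2 UMIs), cluster 1 at 10.9 CPM and cluster 14, with *Foxp3* and *Ctla4*, at 28.8 CPM, so whether the *Mmp9* UMIs of macrophage-like and microglia-like cells came from free RNA was not tested. In neutrophil-like cells, *Timp2* was at 350 CPM with control Ab (25 UMIs) and 118 CPM with anti-CD9 Ab (373 UMIs), where T cell-like cells had 137 and 64.6 CPM. The summed neutrophil markers of these cells were 88610 and 43880 CPM, and their microglia markers 2128 and 441 CPM.

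To read the counts of genes past a 2-fold difference, the share of all genes of the same cell type past it is given as background. The members were chosen with earlier results of these data known, so a count above this share is a description and not a test. In microglia-like cells 2 of the 5 members with at least 50 UMIs were at least 2-fold lower (*Timp2* and *Plau*), against 4.33% of 11093 genes, and 0 of 5 were at least 2-fold higher, against 3.47%. The *Timp2* ratio of -1.02 lay close to the threshold and was smaller than 2-fold without predicted doublets (-0.95), without the sub-clusters of mostly predicted doublets (-0.96), as the mean of each cell's own share (-0.82) and without integration (0.05). *Plau* was at -0.48 without integration. In macrophage-like cells 2 of 8 were lower (*Timp2* and *Plau*), against 6.33% of 9149 genes. There 3 of 8 were higher (*Mmp12*, *Mmp19* and *Timp1*), against 8.0%, with the exception for *Mmp12* under 20 principal components given above. These 3 genes had 1, 5 and 3 control Ab UMIs and passed the minimum of 50 through 127, 134 and 455 anti-CD9 Ab UMIs. The libraries held 1410804 and 6879130 UMIs of macrophage-like cells, so the minimum favoured genes high in the second. This count of 3 is therefore not read as a rise of the members as a set. In neutrophil-like cells 1 of 3 was lower (*Timp2*, at -0.96 with median-of-ratios scaling), where 22.6% of 5233 genes were, and 1 of 3 was higher (*Plaur*, though not under the alternatives given above), where 13.8% were, so these counts are near a wide background over a control library of 63 cells. In T cell-like cells 1 of 2 was lower (*Timp2*), against 2.52% of 9734 genes, and 0 of 2 were higher, against 3.31%. As said above, *Timp2* RNA in these cells can come from free RNA, so this count is not read as a result about T cells. The median log2 ratio of the members was -0.47 in microglia-like cells and 0.43 in macrophage-like cells, where that of all genes was 0.02 and -0.02. The macrophage-like median includes the 3 genes that the minimum favoured, and the microglia-like median is over 5 genes only. Neither median is read as a shift of the members as a set.

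Other genes of the plasminogen and metalloproteinase systems, taken from a list by symbol, moved in both directions. In microglia-like cells 5 of 36 were at least 2-fold lower, where 4.33% of 11093 genes were, and 4 of 36 were higher, where 3.47% were. Lower were *Adamts1*, from 32.9 to 2.35 CPM (log2 ratio -3.81), *Adamts16*, from 56.2 to 4.03 CPM (-3.80), *Serpine2*, from 581 to 203 CPM (-1.51), *Reck* (-1.29) and *Serpinf1* (-1.06). *Serpine2* encodes protease nexin 1, an inhibitor of thrombin and urokinase, and *Reck* a membrane-anchored inhibitor of metalloproteinases. The 4 that were at least 2-fold higher were the formyl peptide receptor gene *Fpr2* (2.95), *Thbs1* (2.09), *Adam8* (1.63) and *Mmp25* (1.58). With anti-CD9 Ab they were at 25.2, 25.2, 9.75 and 7.73 CPM there, against 377, 866, 101 and 35.7 CPM in neutrophil-like cells. The summed neutrophil markers of microglia-like cells were 542 and 1317 CPM. Whether neutrophil RNA or doublets gave these differences was not tested. In macrophage-like cells 5 of 29 were lower, where 6.33% of 9149 genes were. They were led by *Serpine2*, from 87.9 to 4.07 CPM (-4.43), with *Itgav* (-1.65), *Hpse* (-1.20), *Serpinb6a* (-1.02) and *Adamts6* (-1.02). There 7 were higher, where 8.0% of genes were, among them *Fpr2*, from 12.8 to 182 CPM (3.84), *Thbs1*, from 27.6 to 196 CPM (2.83), *Adam8* (2.13), *Mmp8* (1.74) and *Adam19* (1.73). With anti-CD9 Ab these named genes, except *Adam19* (66.0 against 62.9 CPM), were at a higher level in neutrophil-like cells. The summed neutrophil markers of macrophage-like cells were 546.5 and 1249 CPM, and the part of neutrophil RNA in these differences was not tested. In neutrophil-like cells 3 of 20 were lower, where 22.6% of 5233 genes were, and 4 of 20 were higher, where 13.8% were. The lower ones were *Lrp1* (-2.19), *Mmp8*, the neutrophil collagenase, at 658 and 284 CPM (-1.21), and *S100a10* (-1.18). Among the higher ones *Thbs1* was at 28.0 CPM (2 UMIs) and 866 CPM (2739 UMIs), a ratio of 4.95 (2.95 to 6.95). The others were *Furin* (2.32), *Fpr2* (1.75) and *Mmp25* (1.35), with 5, 8 and 1 control Ab UMIs. All 4 passed the minimum through the anti-CD9 Ab library, so their count is not read as a rise either. The intervals of *S100a10* (-2.63 to 0.27) and *Mmp25* (-1.49 to 4.19) held 0. The family's median log2 ratio was -0.09 in microglia-like and 0.21 in macrophage-like cells, over genes that passed the same minimum. The alternatives of the processing were computed for the 9 members only and not for the genes of this list.

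Promoter sequence is shown for members that differed between the libraries in opposite directions: *Plaur*, *Mmp12* and *Timp1*, higher in neutrophil-like or macrophage-like cells, and *Timp2*, lower in each. RefSeq windows (GRCm38.p6, a build other than that of the counts) were at hand for 6 of the 9 genes (7 windows), not for *Mmp9*, *Mmp19* and *Plau*. The 250 bases before the start are printed 5′ to 3′ on the gene's strand, with capitals for the AP-1 letters TGANTCA, which read the same on both strands.

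Plaur (chr7:24462233-24462482, plus strand): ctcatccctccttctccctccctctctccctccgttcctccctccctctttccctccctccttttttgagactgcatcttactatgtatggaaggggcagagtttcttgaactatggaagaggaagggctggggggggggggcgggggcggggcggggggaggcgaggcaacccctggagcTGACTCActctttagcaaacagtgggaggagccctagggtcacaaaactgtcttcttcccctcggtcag
Mmp12, second start (chr9:7347124-7347373, plus strand): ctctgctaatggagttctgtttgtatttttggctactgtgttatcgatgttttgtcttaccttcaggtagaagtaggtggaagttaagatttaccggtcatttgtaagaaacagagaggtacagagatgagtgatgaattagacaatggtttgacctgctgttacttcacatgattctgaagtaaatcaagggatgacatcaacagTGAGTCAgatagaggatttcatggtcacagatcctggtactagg
Timp1 (chrX:20869916-20870165, plus strand): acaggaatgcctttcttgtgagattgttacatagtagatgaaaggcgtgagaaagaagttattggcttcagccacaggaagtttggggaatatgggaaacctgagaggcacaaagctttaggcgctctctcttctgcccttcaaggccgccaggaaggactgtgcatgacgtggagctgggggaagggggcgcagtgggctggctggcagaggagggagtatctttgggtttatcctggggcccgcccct
Timp2 (chr11:118355412-118355661, minus strand): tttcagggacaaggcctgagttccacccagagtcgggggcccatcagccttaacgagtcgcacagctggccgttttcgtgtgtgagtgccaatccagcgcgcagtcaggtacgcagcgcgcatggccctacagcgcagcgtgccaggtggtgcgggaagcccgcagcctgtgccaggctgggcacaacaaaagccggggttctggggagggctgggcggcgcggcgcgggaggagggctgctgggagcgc

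The letters TGANTCA occurred in the *Plaur* window, 69 bases before the start as counted from the first letter, and 44 bases before the second start of *Mmp12*, but not in the windows of *Timp1*, *Timp2*, *Timp3*, *Mmp14* or the first start of *Mmp12*. Of all 32851 windows of this length 6.7% held them. The ETS letters GGAAGT, searched on both strands, occurred in both *Mmp12* windows and in that of *Timp1*, and in 19.7% of all windows. A match is a run of letters and not a measured binding site.

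The genes whose levels were most like those of each member were sought over 21 groups of cell type and library with at least 100 cells, by Pearson correlation of log2(CPM + 10). Groups of 1 library share its depth and free RNA, so these values are a description. *Mmp9* was most like the neutrophil gene *Ly6g* (r = 0.968), *H2-Q10* (0.968) and *Stfa2l1* (0.964). *Timp2* was most like the lysosomal protease genes *Ctsd* (0.946) and *Ctsl* (0.933) and *Syngr1* (0.942), and *Plau* like *Rcan1* (0.920), *Ctsb* (0.891) and *Syngr1* (0.889). *Plaur* was most like the complement receptor gene *C5ar1* (0.945), *Cd14* (0.937) and *Tpd52* (0.936), and *Mmp14* like *Cav2* (0.918), *Gm56768* (0.916) and *Ms4a6c* (0.904). *Timp1* was most like *Gm15056* (0.909), *Ms4a8a* (0.895) and *Adgre4* (0.852). For *Timp3* the nearest were *Mir9-3hg* (0.975), *Zfp521* (0.975) and *Pcdh10* (0.974), for *Mmp12* *C1ra* (0.881), *Clmp* (0.822) and *Plcb3* (0.792), and for *Mmp19* *Alpk1* (0.813), *Sh3pxd2b* (0.802) and *Dab2* (0.799).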

How the data were processed

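The deposited matrices held raw UMI counts per gene and barcode, made by the authors with Cell Ranger from 10x Genomics 3′ (v3.1) libraries. The submitters' processing notes give version 8.0.0 and GRCm39, as does the header of the files for the version, whereas the methods name other releases. No file assigned cells to mice.

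Barcodes with 200 to 7500 genes and no more than 2% mitochondrial counts were kept, as in the study's methods. The 9 genes and the family list were left out of the 2000 variable genes, the libraries were integrated by anchors (Seurat 5.3.0, R 4.3.3, 30 principal components) and cells were clustered (resolution 0.8). A cluster took a name when at least 50% and at least 3 of a type's markers were up, with the limits of this rule set after seeing the data. A cluster was left unnamed when over 50% of its cells were predicted doublets, when a second type had 75% of its markers up, or when it was shallow and had no marker of its type among its leading genes. Doublets were predicted from simulated doublets at 0.8% per 1000 barcodes (778 and 1141 kept cells marked) and were not removed from named clusters. UMIs were summed per cell type and library, divided by all UMIs of those cells, and a ratio was given at 50 or more UMIs. Its interval came from Poisson errors, that of a level from the exact Poisson limits and that of a share from the exact binomial (Clopper-Pearson) limits. Where a library had 0 UMIs, 3 counts set the limit. The ratio and the thinning were tested on simulated data.

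Named were all 9 members, the family genes with at least 50 UMIs and a 2-fold difference, up to 6 per direction, and the 3 genes most alike to each member. Genes outside this rule that are named lead a cluster or mark a cell type. The members and lists were chosen with earlier results of these data known. Alternatives were clustering without integration or with 20 principal components, a 5% mitochondrial limit, naming of single cells, doublets left out, other scalings, other thinning and other thresholds. For alternatives, monocyte-like cells counted as macrophage-like. A result for a further gene of the plasminogen and metalloproteinase list is not reported here.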

Additional observations from a re-analysis of the deposited data

Results flagged for a closer look

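*Plaur* differed between the libraries in opposite directions in 2 cell types, with a log2 ratio of 1.34 in neutrophil-like cells and -0.47 in microglia-like cells. Without integration the ratio of microglia-like cells was 0.11 (-0.24 to 0.46), so the opposite direction was lost. With 1 library per antibody the difference between the cell types was not tested.

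The barcodes left out by the mitochondrial limit (4743 with control Ab against 5998 with anti-CD9 Ab), which the report uses only in the alternative with a 5% limit, also held members at different levels. *Mmp14* was at 16.3 and 70.6 CPM (log2 ratio 2.12), *Mmp19* at 0.890 and 8.65 CPM (3.28) and *Timp1* at 0.485 and 9.26 CPM (4.25). In the same barcodes *Timp2* was at 794 and 202 CPM (-1.97), *Timp3* at 4.21 and 0.772 CPM (-2.45) and *Plau* at 51.7 and 6.83 CPM (-2.92), all lower with anti-CD9 Ab. The other members differed by less than 2-fold: *Plaur* (0.29), *Mmp9* (0.79) and *Mmp12* (0.99), against 1.75, 3.29 and 1.36 in all kept cells. These levels are over all left-out barcodes and not within cell types, so they follow the mix of cells as well.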

How the results depend on the processing

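Over 17 log2 ratios, 141 of 161 alternative values kept the sign, 118 lay inside the counting interval of the reported value, and of the 87 alternatives of ratios of at least 1 in size 85 kept the sign. The exceptions were *Timp2* in microglia-like cells without integration (0.05) and *Mmp12* in macrophage-like cells with 20 principal components (-0.62). For *Timp2* in microglia-like cells, naming by the best-matching list without integration gave -0.95, leaving out predicted doublets -0.95, UMIs per cell -1.64 and the mean of each cell's own share -0.82. *Plau* in microglia-like cells was at -0.48 without integration and -2.25 as UMIs per cell. *Mmp14* in macrophage-like cells was at 0.52 without integration, 0.47 with the best-matching list, 0.50 with cells named one by one and 0.50 as UMIs per cell. *Mmp9* in neutrophil-like cells was at -0.27 with median-of-ratios scaling. *Plaur* there was at 1.98 with cells named one by one, 1.95 with that scaling and 2.06 as the mean of each cell's own share, and below 2-fold with the best-matching list (0.88) and with a 5% mitochondrial limit (0.97). *Timp3* in astrocyte-like cells was at -1.15 with the best-matching list and 1.32 with cells named one by one. The share of microglia-like cells with a *Timp2* UMI was 78.0% (control Ab) and 66.7% (anti-CD9 Ab) without thinning, and 79.2% and 53.2% when thinned to 2000 UMIs. With 1 UMI as the minimum, 2 members were at least 2-fold higher in microglia-like cells and 4 lower in neutrophil-like cells, and with 200 UMIs 1 was higher in macrophage-like cells. At a 1.5-fold threshold 1 was higher in microglia-like cells and 2 were lower in neutrophil-like cells. The causes were not tested, except that a single control Ab cell with 41 *Mmp12* UMIs changed type. No paired analysis was possible because each antibody had 1 library. *Mmp12* in macrophage-like cells had 0 UMIs with control Ab and no ratio without integration or with cells named one by one.

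Antibody, pool of mice and library cannot be told apart, and no interval holds the spread between mice. The control Ab library had 63 neutrophil-like cells, of which 21 had 1000 UMIs, and 216 macrophage-like cells, so that ratios in these types rest on few cells on 1 side. In sorted cells the level of a gene per type depends on where a type is cut, as shown by the microglia-like cells.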

Other observations

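Members were also found in groups that took no cell type name and in oligodendrocyte-like cells. Cluster 6 (22 cells with control Ab against 1124 with anti-CD9 Ab), led by *Ttr* and the mast cell protease genes *Mcpt2* and *Mcpt1*, had *Timp2* at 634 and 147 CPM (34 and 161 UMIs) and, with anti-CD9 Ab, *Mmp14* at 60.1 CPM and *Plaur* at 92.0 CPM. Cluster 9 (363 and 230 cells), led by hemoglobin genes, had *Timp2* at 530 and 210 CPM and *Plau* at 60.8 CPM (21 UMIs) and 8.41 CPM (2 UMIs). In oligodendrocyte-like cells *Plaur* was at 30.4 CPM (17 UMIs) and 151 CPM (17 UMIs), and *Timp2* had a log2 ratio of -3.10 (-4.26 to -1.93) over 255 and 6 UMIs. The summed neutrophil markers of oligodendrocyte-like cells were 186 and 5066 CPM, and neutrophil-like cells held *Plaur* at 816 CPM with anti-CD9 Ab. The part of neutrophil RNA in the *Plaur* difference was not tested.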
